A study of Mus musculus with 3 samples.

Results

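The collagen genes of healing mouse skin were followed over 3 days of wound repair. They were taken by symbol from the platform's annotation, as every gene whose symbol is Col, a number, the letter a and a number. This gave 44 of 19938 named genes. The rule itself uses no array value, but it was set with earlier results of these data known. Of them, 11 encode fibrillar chains, 9 fibril-associated chains, 9 chains of basement membranes and their anchorage, 9 network-forming chains and 4 transmembrane chains. The remaining 2, Col26a1 and Col28a1, were placed in no class. All 44 were on the array, 42 of them with 1 probe set and 2 of them, Col6a5 and Col6a6, with 2 probe sets.

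The tissue came from C57Bl/6 mice, an inbred laboratory strain with no engineered allele named in the labels, at 6 weeks of age. Each mouse had a 1.5 cm2 excision of epidermis and dermis on its back, and the animals received no further agent per the labels. Newly formed tissue was dissected on day 10, 12 or 14 after wounding, with the wound margin and its follicles avoided, and tissue from 3 mice was combined for each day. Every group therefore consisted of 1 pool on 1 one-colour array, unwounded skin was not analysed here, and neither the spread between animals nor a p-value could be obtained. Values are log2 expression as deposited, and differences are log2 differences between 2 arrays. The step from day 10 to day 12 is called the first step, that from day 12 to day 14 the second step, and that from day 10 to day 14 the interval.

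Collagens are secreted or membrane-anchored proteins in which chains carrying a repeated glycine motif wind into a rope-like helix. Fibrillar collagens assemble into the fibres that give dermis and scar their strength, and fibril-associated collagens sit on the surface of these fibres. Type IV collagen forms the meshwork of basement membranes, type VII collagen anchors the epidermal basement membrane to the dermis, and type XVII collagen is a transmembrane protein of the hemidesmosomes of basal keratinocytes. In wounds, fibroblasts and myofibroblasts are the main source of types I, III, V, VI and XII.

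The tissue carried the markers of skin. The basal keratinocyte marker Krt14 was between 13.30 and 13.32 on each array, and the fibroblast markers Dcn and Pdgfra were at 13.39 and 11.83 on day 10. The cartilage markers Acan and Matn1 were at 6.57 and 5.92 on day 10, where the lower quartile of all probe sets was 5.91. Sox9 of the same list, which skin follicles also express, was brighter, at 10.59 on day 10. The array medians were 7.53, 7.55 and 7.53.

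Most collagen transcripts differed little between the 3 days. Of the 44 genes, 43 stayed within 1.5-fold between every pair of days, and Col17a1 was the exception. At the first step, 0 of the 44 genes passed 1.5-fold upward and 0 downward, where 2.33% and 0.958% of all named genes did. At the second step the counts were again 0 and 0, against 0.271% and 0.712% of all named genes. Over the interval 1 collagen gene was higher by that size and 0 were lower, against 3.11% and 2.98%. At 2-fold the collagen counts over the interval were 0 and 0, against 1.25% and 0.512%. The median difference of the 44 genes was 0.00 at the first step, 0.02 at the second and 0.03 over the interval, and that of all named genes was 0.00 in each. In the deposited values small differences leaned upward after day 12. Over the interval 24 of the 44 genes (54.5%) were higher by any amount and 13 lower, where 34.9% and 35.6% of all named genes were. At the second step 24 were higher and 10 lower, against 32.7% and 30.8%, and at the first step 10 were higher and 14 lower, against 25.5% and 34.5%. Exact ties make these shares depend on the scaling. With centred arrays the collagen genes higher over the interval made up 72.7% and all named genes 66.3%, and after quantile normalization 75% and 54.3%. At the second step these shares were 81.8% and 74.4% with centred arrays, and 81.8% and 72.6% after quantile normalization. Without regard to sign, the median difference of the collagen genes was 0.08 at the second step and 0.12 over the interval, against 0.03 and 0.06 in all named genes. At the first step it was 0.01, against 0.02. A share of 1 in 44, or 2.27%, lies near the background, so the count at 1.5-fold does not set collagens apart from other genes.

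**Figure D1:**
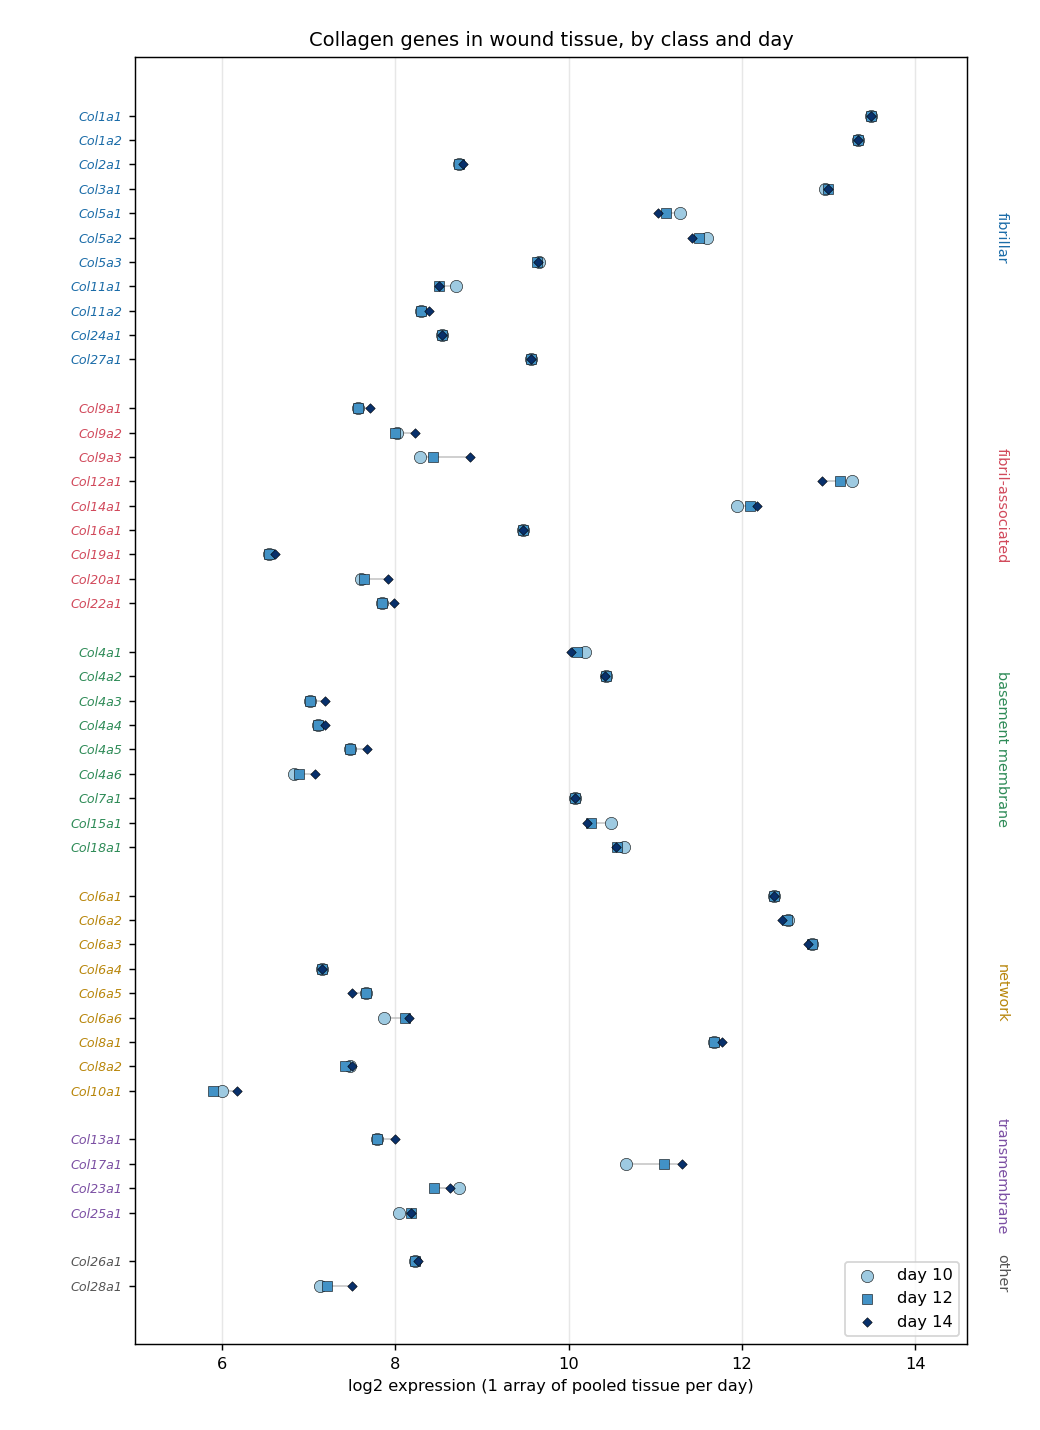
Log2 expression of the 44 collagen genes on day 10 (circle), day 12 (square) and day 14 (diamond), 1 array of pooled tissue per day, grouped by class. The symbols of most genes lie on top of each other, and the widest spacings are those of Col17a1, from 10.66 to 11.31, and Col9a3, from 8.29 to 8.86. Brightness depends on the probes, so positions of different genes along the axis are not compared.

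A yardstick for technical scatter came from the 777 genes that had exactly 2 probe sets on the array. The differences that these pairs reported for the same gene disagreed by a median of 0.04 at the first step, 0.05 at the second and 0.07 over the interval. In 95% of these genes the disagreement stayed below 0.37, 0.29 and 0.48. Beyond these sizes lay Col17a1 at the first step, Col9a3 at the second, and both of them over the interval, all with the higher value on the later day. That is 1, 1 and 2 of 44, where 4.41%, 2.24% and 4.17% of all named genes were higher by as much. The count of collagen genes lower by as much was 0 in each comparison, where 3.6%, 3.32% and 4.71% of named genes were. This yardstick covers scatter between probes and leaves out the scatter between animals.

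Col17a1, which encodes the hemidesmosomal type XVII collagen, was at 10.66 on day 10, 11.10 on day 12 and 11.31 on day 14. It was thus lowest on day 10 and highest on day 14, by 0.43 at the first step and 0.22 at the second. Over the whole interval this was 0.65, or 1.57-fold. This difference was 0.66 with centred arrays and 0.70 after quantile normalization. The gene had 1 probe set, so the probe set rule could not change it. Epithelial markers were higher over the same interval, by sizes that differed between lists. All 6 basal keratinocyte markers were higher on day 14 than on day 10, by a median of 0.05, with Krt5 at 0.05, Krt14 at 0.02, and Itga6 and Itgb4, the integrin chains of hemidesmosomes, at 0.04 and 0.02. Each of these named differences was below 0.07, the median disagreement of probe sets over the interval. The largest of the 6 differences, named after its value was seen, was that of Trp63, a transcription factor of basal keratinocytes, at 0.42. The summed level of the 6 markers was 14.74, 14.78 and 14.79 on a log2 scale, and at the second step 3 of them were higher and 2 lower. The 4 differentiated keratinocyte markers measured were all higher at each step and by a median of 0.60 over the interval. Of these, the cornified envelope genes Lor and Ivl differed by 0.96 and 0.94, and the keratins Krt1 and Krt10 by 0.15 and 0.26. Their summed level was 14.81, 15.13 and 15.26. The 5 hair follicle markers were also all higher at each step, by a median of 1.29 over the interval, and 3 of them by at least 2-fold. Higher by any amount were 25.5% of all named genes at the first step, 32.7% at the second and 34.9% over the interval. At least 2-fold higher over the interval were 1.25%. Krt71 and Krt25, keratins of the inner root sheath, differed by 1.62 and 1.29, and the summed level of the 5 was 11.18, 11.68 and 12.07. The part of keratinocyte or follicle cell number in the Col17a1 difference was not tested, and in pooled tissue more cells of a type and more transcript per cell cannot be told apart. Col7a1, the anchoring fibril collagen of the same junction, held exactly 10.07 on all 3 days.

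Upstream sequence is shown for the collagen gene that passed 1.5-fold and for a pair of bright dermal collagen genes with near-equal values. Each line holds the 250 bases before the RefSeq transcription start in GRCm38.p6, 5′ to 3′ on the gene's strand. Capitals mark 3 short motifs found on either strand. These are the CCAAT box, which reads ATTGG on the other strand, the TATA motif TATAAA, and the GC box GGGCGG. Col17a1 lies at chr19:47692043-47692292 (minus strand), Col1a2 at chr6:4505368-4505617 (plus strand) and Col3a1 at chr1:45311288-45311537 (plus strand).
Col17a1: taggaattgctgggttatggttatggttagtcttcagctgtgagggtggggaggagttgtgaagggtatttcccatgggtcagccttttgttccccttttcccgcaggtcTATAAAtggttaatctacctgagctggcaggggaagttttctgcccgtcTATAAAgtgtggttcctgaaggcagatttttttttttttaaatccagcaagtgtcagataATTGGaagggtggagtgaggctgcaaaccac
Col1a2: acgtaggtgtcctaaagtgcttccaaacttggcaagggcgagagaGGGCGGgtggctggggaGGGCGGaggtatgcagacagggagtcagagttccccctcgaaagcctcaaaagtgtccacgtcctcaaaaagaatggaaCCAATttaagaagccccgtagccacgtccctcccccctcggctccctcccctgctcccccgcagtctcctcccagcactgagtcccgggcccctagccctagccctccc
Col3a1: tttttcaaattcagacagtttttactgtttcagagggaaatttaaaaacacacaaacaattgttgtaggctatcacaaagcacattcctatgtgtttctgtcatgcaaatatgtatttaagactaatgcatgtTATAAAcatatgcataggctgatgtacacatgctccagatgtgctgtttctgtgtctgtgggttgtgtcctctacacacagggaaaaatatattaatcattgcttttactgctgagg
The Col17a1 window held TATAAA beginning 140 and 91 bases before the start and ATTGG at 31 bases, with 46% G and C. The Col1a2 window held GGGCGG at 205 and 188 bases and CCAAT at 109 bases, with 62% G and C. The Col3a1 window held TATAAA at 117 bases, with 35.2% G and C. The AP-1 motif, which is TGACTCA or its complement TGAGTCA, was in none of these windows, and the marked motifs did not overlap. RefSeq windows were found for 35 of the 44 collagen genes, 38 windows in all. Of these 38, CCAAT was in 13 (34.2%), TATAAA in 5 (13.2%), GGGCGG in 22 (57.9%) and the AP-1 motif in 1 (2.63%). Among all 32851 windows of that length the shares were 33.8%, 12.4%, 32.7% and 4.46%. A match describes the letters only.

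The fibrillar class gave the flattest values. Of its 11 genes, 4 were higher, 4 lower and 3 exactly equal over the interval, with a median of 0.00 and a range from −0.25 to 0.09. Over all named genes 34.9% were higher and 35.6% lower. Col1a1 and Col1a2, the chains of type I collagen and the main protein of dermis, were at 13.48 and 13.35 on day 10, and their differences over the interval were 0.0037 and 0. Col3a1, the chain of type III collagen of young granulation tissue, was at 12.96 on day 10 and 12.99 on days 12 and 14. Values of the type I and III chains thus differed between days by less than the median disagreement of probe sets.

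Of the type V chains, which join type I fibres and limit their width, Col5a1 and Col5a2 were lower at each step. Col5a1 was at 11.28 on day 10, 11.12 on day 12 and 11.04 on day 14, a difference of −0.25 over the interval. Col5a2 was at 11.60, 11.50 and 11.42, a difference of −0.18. The third type V chain, Col5a3, differed by −0.01 over the interval, which turned positive under a rescaling, and by 0.01 at the second step. All of these sizes were inside the range that held 95% of the probe set disagreements.

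Among the fibrillar genes known best from cartilage, Col2a1, Col11a1 and Col11a2 differed by 0.04, −0.19 and 0.09 over the interval. Col11a1 was at 8.70 on day 10 and 8.50 on both later days. The cartilage markers had a median of −0.01, with 1 of 6 higher and 4 of 6 lower, where 34.9% and 35.6% of all named genes were. Their summed level was 10.90, 10.52 and 10.44, carried by Sox9, which skin follicles also express. Col24a1 and Col27a1 held the same value on all 3 days, 8.54 and 9.57.

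The fibril-associated class was mostly higher on day 14 and held both signs among its brightest members. Over the interval 7 of its 9 genes were higher, 1 was lower and 1 was equal, with a median of 0.14. The same counts held at the second step, with a median of 0.13, where 32.7% of all named genes were higher and 30.8% lower. At the first step 3 were higher and 2 lower, where 25.5% and 34.5% of named genes were. Of the 7 higher genes, 5 lay in the dimmer 50% of named genes by mean, where 40.7% of named genes were higher at the second step and 40.5% over the interval. The 4 brighter members, Col9a3, Col12a1, Col14a1 and Col16a1, had a median of 0.04 at the second step and 0.12 over the interval.

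Col12a1, a collagen that bridges fibres under tension, was at 13.27 on day 10, 13.13 on day 12 and 12.93 on day 14. It was lower at each step, and its difference of −0.34 (1.27-fold) was the lowest of the 44 genes. Col14a1, its relative in mature dermis and tendon, was at 11.94, 12.09 and 12.17, higher at each step and by 0.23 over the interval. Relative to each other on the same arrays, Col14a1 gained 0.29 on Col12a1 by day 12 and 0.58 by day 14. The 5 myofibroblast markers were lower alongside Col12a1, by a median of −1.14 and each by at least 1.5-fold. Acta2, the smooth muscle actin of myofibroblasts, differed by −0.87 and Tagln by −1.14. The summed level of the 5 markers was 14.12, 13.40 and 13.04. At least 1.5-fold lower over the interval were 2.98% of all named genes. Lower by any amount were 35.6% of all named genes and 53.3% of the brighter named genes, which include all 5 markers. The 7 fibroblast markers had a median of −0.17, with 5 lower and 2 higher, where 35.6% and 34.9% of all named genes were. Their summed level was 15.10, 15.05 and 15.01. The largest difference in this list, named after its value was seen, was that of Pi16, higher by 1.04 (2.05-fold). Of the brighter chains of types I, III, V and VI, Col1a1, Col1a2, Col3a1 and Col6a1 differed by 0.0037, 0, 0.035 and 0. Col5a1, Col5a2, Col5a3, Col6a2 and Col6a3 differed by −0.25, −0.18, −0.01, −0.08 and −0.05. Whether myofibroblasts or fibroblasts had a part in the Col12a1 and Col14a1 differences was not tested.

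Col9a3, a chain of type IX collagen, was at 8.29 on day 10, 8.44 on day 12 and 8.86 on day 14. Most of its difference belonged to the second step, at 0.43, and over the interval it was 0.57 or 1.49-fold. It passed 1.5-fold when the arrays were centred or quantile normalized. Its partner chains Col9a1 and Col9a2 differed by 0.14 and 0.20 over the interval. Col20a1 was at 7.61, 7.64 and 7.92, a difference of 0.31. Col22a1 and Col19a1 differed by 0.13 and 0.08, and Col16a1 held 9.48 throughout.

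**Figure D2:**
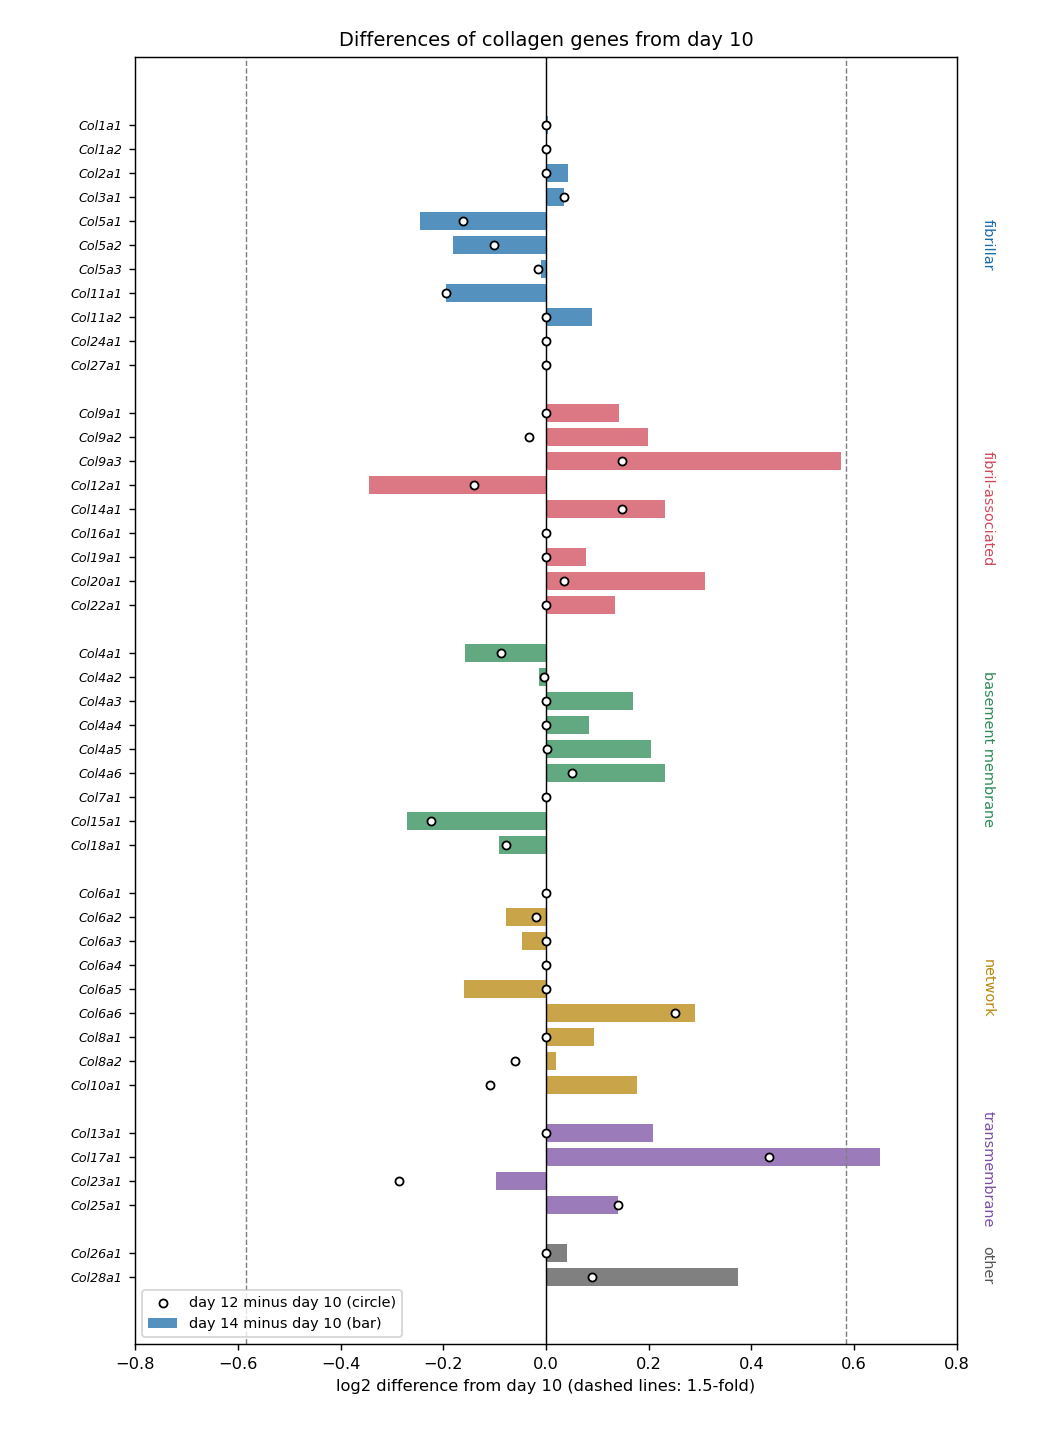
Log2 difference of each collagen gene from day 10, on day 14 (bars, coloured by class) and on day 12 (open circles), with dashed lines at 1.5-fold. Col17a1 at 0.65 is the only bar past a dashed line, Col9a3 stops short at 0.57, and Col12a1 reaches furthest down at −0.34.

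The basement membrane class divided by chain and, with the same split, by brightness. Its 9 genes had a median of 0.00 over the interval, with 4 higher, 4 lower and 1 equal. Of all named genes 34.9% were higher and 35.6% lower. Col4a1 and Col4a2, the chains of the type IV collagen found in nearly every basement membrane, were at 10.19 and 10.44 on day 10 and differed by −0.16 and −0.01 over the interval. The Col4a2 difference turned positive under a rescaling. The 4 chains of restricted basement membranes were each higher on day 14. Col4a3 and Col4a4, the chains known from kidney, differed by 0.17 and 0.08. Col4a5 and Col4a6, chains of the epidermal basement membrane, differed by 0.21 and 0.23. These 4 genes were the members of the class in the dimmer 50% of named genes, where 40.5% of all named genes were higher over the interval. The 5 brighter members were lower or equal. Chain type and brightness cannot be told apart here.

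Col15a1 and Col18a1, collagens of vessel walls and basement membrane zones whose ends can be cleaved off as anti-angiogenic fragments, were lower on day 14. Col15a1 was at 10.49 on day 10, 10.26 on day 12 and 10.22 on day 14, a difference of −0.27 that lay mostly at the first step, at −0.22. Col18a1 differed by −0.09. All 6 endothelial markers were lower as well, by a median of −0.50, with Pecam1 at −0.26 and Cdh5 at −0.29. Their summed level was 13.72, 13.46 and 13.31. Lower by any amount over the interval were 35.6% of all named genes and 53.3% of the brighter named genes, which include all 6 markers. The part of endothelium in the Col15a1 difference was not tested.

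The network class had 4 genes higher, 3 lower and 2 equal over the interval, and a median of 0.00. Of all named genes 34.9% were higher and 35.6% lower. The main chains of type VI collagen, which builds beaded filaments around cells, were flat. Col6a1 held 12.37 on all 3 days, and Col6a2 and Col6a3 differed by −0.08 and −0.05, of which the latter turned positive under quantile normalization. Col6a6 was at 7.87, 8.12 and 8.16, and its 2 probe sets gave the same difference of 0.29 over the interval. The 2 probe sets of Col6a5 disagreed, at −0.32 and 0.00, and Col6a4 held 7.16 on each array. Of the short-chain collagens, Col8a1, which is made by vessel walls and activated mesenchyme, was at 11.67, 11.67 and 11.77. Col8a2 and Col10a1, the latter known from hypertrophic cartilage, differed by 0.02 and 0.18.

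Beside Col17a1, the transmembrane class holds Col13a1, Col23a1 and Col25a1, which differed by 0.21, −0.10 and 0.14 over the interval. Col23a1, an epithelial collagen, was at 8.73 on day 10, 8.45 on day 12 and 8.64 on day 14, so that its lowest value fell in the middle. Its −0.29 was the lowest difference of the first step among the 44 genes. Over the interval 3 of the 4 genes in this class were higher, where 34.9% of all named genes were, with a class median of 0.17. Of the genes in no class, Col28a1, a collagen known from peripheral nerve, was at 7.13, 7.22 and 7.50, a difference of 0.37, and Col26a1 differed by 0.04. The 3 Schwann cell and nerve markers measured were also higher, by a median of 0.59, where 34.9% of all named genes were higher. Sox10 and Mbp differed by 0.59 and 0.61, and the summed level of the 3 markers was 10.04, 10.33 and 10.46. Their part in the Col28a1 difference was not tested. The marker lists for pericytes, adipocytes, skeletal muscle and macrophages had medians of −0.095, 0.06, 0.00 and 0.07 over the interval.

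Some collagen genes sit side by side in the genome. In the GRCm38.p6 gene table, 8 pairs of collagen genes are neighbours among protein-coding genes. These are Col4a1 with Col4a2, Col4a3 with Col4a4, Col4a5 with Col4a6, Col6a1 with Col6a2, Col3a1 with Col5a2, Col9a1 with Col19a1, and Col6a5 with Col6a4 and Col6a6. The differences over the interval were 0.21 and 0.23 for Col4a5 and Col4a6, and 0.14 and 0.08 for Col9a1 and Col19a1. They were 0.04 and −0.18 for Col3a1 and Col5a2. Neighbours thus included pairs with like values and pairs with unlike ones, and no test was made.

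Brightness limits what these values can show at both ends. Of the 44 genes, 6 were in the brightest 1% of named genes by mean, namely Col1a1, Col1a2, Col3a1, Col12a1, Col6a2 and Col6a3. Col1a1 lay 0.61, 0.52 and 0.59 below the brightest probe set of its array, and 6, 9 and 7 named genes were brighter. The 200 named genes of this brightest 1% had a median absolute difference of 0.10 over the interval, compared with 0.13 in the brighter 50% of named genes, and reached from −0.87 to 0.96. The 11 other named genes at least as bright as Col1a2 by mean, which are part of this 1%, reached from −0.04 to 0.48, with a median absolute difference of 0.03. Scanner signals were not used here, and whether the probes of Col1a1 or Col1a2 were saturated is unknown. A saturated probe would show a smaller difference than the transcript.

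Most of the 18 collagen genes in the dimmer 50% of named genes were higher on day 14. At the second step 15 of them were higher and 1 was lower, with a median of 0.14. Of all named genes in the dimmer 50%, 40.7% were higher, 11.7% were lower, and the median was 0.00. Over the interval 16 of the 18 were higher and 1 was lower with a median of 0.16, against 40.5% and 17.9%. At the first step 6 were higher and 3 lower with a median of 0.00, against 18.2% and 23.7%. After quantile normalization the share of dim named genes that were higher at the second step was 83.3%, with a median of 0.02, and 17 of the 18 dim collagen genes were higher, with a median of 0.16. These differences were small, at most 0.29 at the second step, and whether these genes stood above background is unknown. Of the 26 brighter collagen genes 9 were higher and 9 lower at the second step, where 24.6% and 49.8% of the brighter named genes were. Over the interval 8 of the 26 were higher and 12 lower, where 29.3% and 53.3% were.

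**Figure D3:**
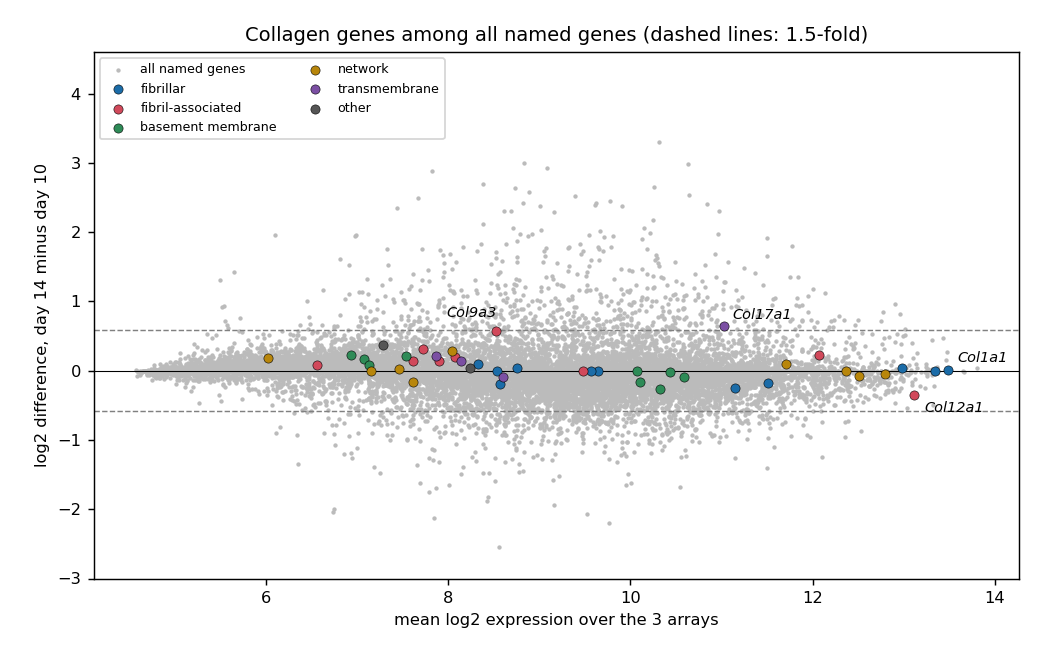
Log2 difference of day 14 minus day 10 against the mean log2 expression over the 3 arrays, for all 19938 named genes (grey) and the 44 collagen genes (coloured by class), with dashed lines at 1.5-fold. Collagen genes above a mean of about 12 lie close to 0 except Col12a1 at −0.34 and Col14a1 at 0.23, and 16 of the 18 in the dimmer 50% of named genes lie above 0.

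Equal values need care. At the first step 20 of the 44 genes (45.5%) held exactly the same value, as did 40% of all named genes. Over all 3 days, 7 collagen genes were equal, where 25.7% of named genes were. They were Col1a2, Col24a1, Col27a1, Col16a1, Col7a1, Col6a1 and Col6a4. A probe set summary over few arrays can return ties, so an exact 0 does not measure the absence of a difference.

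The enzymes and chaperones that make collagen inside the cell were mostly lower on day 14. Of 22 measured genes for modification, folding and export, 19 were lower on day 14 than on day 10, 1 was higher and 2 were equal, with a median of −0.35. Of all named genes 35.6% were lower, and of the brighter 50%, which held 21 of the 22, 53.3% were. Of the 22, 3 were at least 1.5-fold lower and 0 at least 1.5-fold higher, against 2.98% and 3.11% of all named genes. After quantile normalization the counts in this list were 2 and 1. Plod2, a lysyl hydroxylase that sets the type of cross-link, was at 10.55, 10.22 and 9.72, a difference of −0.84 or 1.79-fold. Fkbp14, a prolyl isomerase of the endoplasmic reticulum, was at 11.59, 11.10 and 10.89, a difference of −0.71. P4ha3, a subunit of prolyl 4-hydroxylase, was at 11.63, 11.17 and 10.99, a difference of −0.63. These genes were highest on day 10 and lowest on day 14. P3h2, a prolyl 3-hydroxylase of basement membrane collagen, was the higher gene, at 10.28, 10.67 and 10.84, a difference of 0.56. The difference of this list's median from that of the 44 collagen genes was not tested.

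Genes for processing and cross-linking outside the cell gave a like picture. Of 12 measured, 9 were lower over the interval and 1 was higher, with a median of −0.34, where 35.6% and 34.9% of all named genes were. In the brighter 50%, 7 of 7 were lower, where 53.3% of named genes were, and in the dimmer 50% 2 of 5 were, where 17.9% were. Loxl3, a lysyl oxidase, was at 10.61, 9.67 and 9.39, which is 2.32-fold lower over the interval. Loxl4 of the same family was at 7.66, 8.42 and 8.41, which is 1.68-fold higher. Bmp1, the protease that trims the procollagen C-terminus, differed by −0.38, and the transglutaminase gene Tgm2 by −0.44.

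The regulators of fibril assembly had a median of −0.05, with 10 of 13 lower, 2 higher and 1 equal, where 35.6% of all named genes and 53.3% of the brighter 50%, which held 12 of the 13, were lower. The gene with the largest difference was Tnxb, which encodes tenascin X, a protein needed for collagen organisation in resting dermis. It was at 7.54 on day 10, 9.56 on day 12 and 9.92 on day 14, which is 4.03-fold higher on day 12 and 5.19-fold higher on day 14 than on day 10. Thbs1, Ogn and Kera differed by −0.45, −0.24 and −0.24. Of 9 collagen receptor genes, Ddr1, a receptor tyrosine kinase of epithelium, was at 9.65, 10.06 and 10.30, which is 1.57-fold higher. The integrin genes Itga1, Itga11 and Itgb1 differed by −0.06, −0.07 and −0.22, and the receptor median was 0.00.

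Among 9 collagen-degrading proteases, 7 were lower on day 14 than on day 10 and 0 were higher, with a median of −0.19. In the brighter 50% of named genes 6 of 6 were lower, where 53.3% of all those were, and in the dimmer 50% 1 of 3 was, where 17.9% were. At least 1.5-fold lower were 3 of the 9, against 2.98% of all named genes. They were Mmp8, the neutrophil collagenase, at −1.61, Mmp9, a gelatinase, at −1.11, and Mmp13, the interstitial collagenase of rodents, at −0.99. Mmp8 was at 7.96 on day 10, 8.77 on day 12 and 6.35 on day 14, thus 1.75-fold higher at the first step and 5.37-fold lower at the second. Mmp13 was at 11.61 on day 10, 11.60 on day 12 and 10.62 on day 14, so its difference lay at the second step. Fap differed by −0.25.

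**Figure D4:**
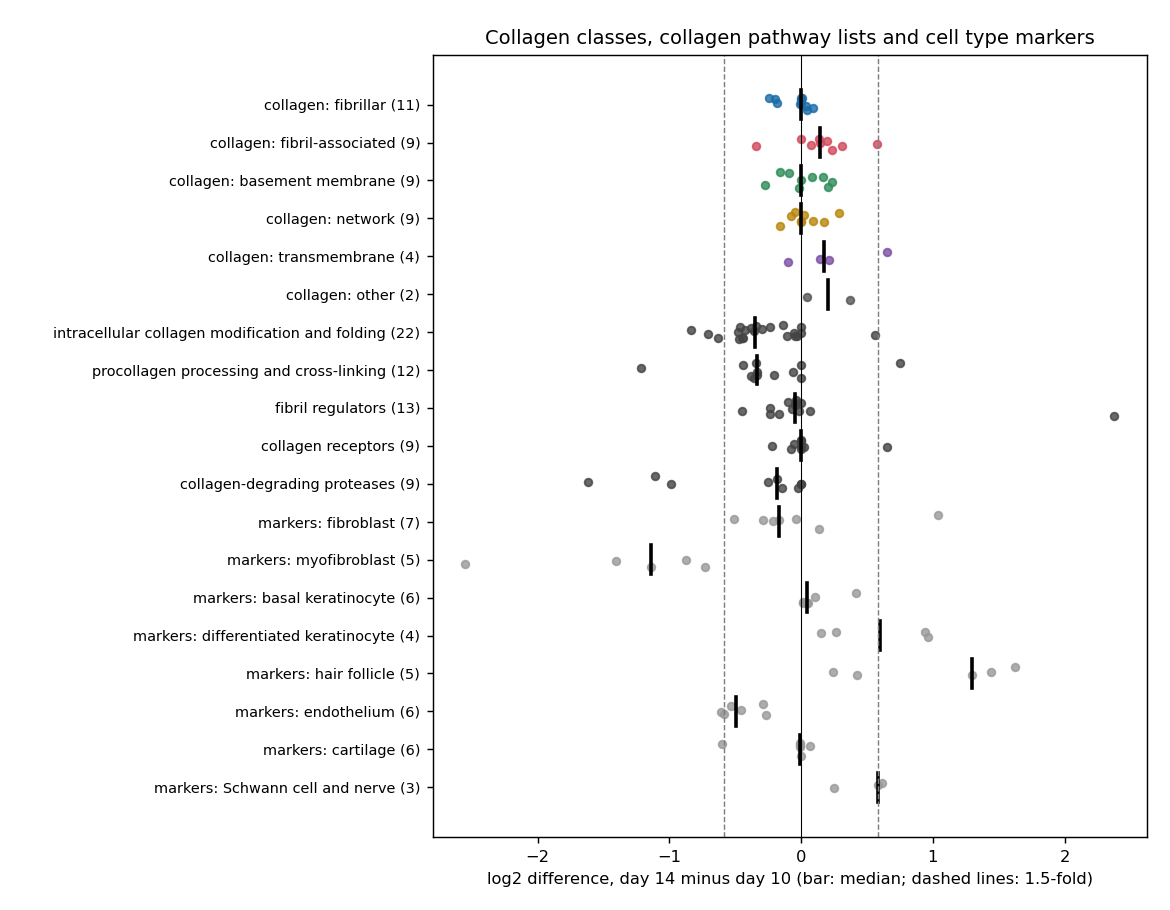
Log2 difference of day 14 minus day 10 for the genes of each collagen class, of lists of collagen-related genes and of cell type markers, with 1 point per gene, a black bar at the median, the number of genes in brackets and dashed lines at 1.5-fold. The 5 collagen classes centre between 0.00 and 0.17, and the 2 collagen genes in no class at 0.21. The modification and processing lists centre at −0.35 and −0.34, the myofibroblast markers at −1.14 and the hair follicle markers at 1.29.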

How the data were processed

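RNA of pooled wound tissue (3 mice a day) was hybridised to 1 array for each of 3 days. The log2 values per probe set are those deposited by the authors, used without rescaling. RMA and Partek 6.6 are named without roles in the submitters' processing notes, and a log2 scale was inferred from the range, 4.37 to 14.1. The aligner, build and probe sequences are not given in the sources used here. Of 35556 probe sets, 21789 had 1 gene symbol in the platform's annotation and were averaged per symbol to 19938 genes. Entrez identifiers of all 44 collagen genes matched the GRCm38.p6 table, with 0 symbols changed.

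With 1 array a day no test was made. Genes were counted by a fixed 1.5-fold. The members, classes, gene lists, the 1.5-fold size and the alternatives were chosen with earlier results of these data known, and the probe set yardstick and the split by brightness after seeing the values. All collagen genes could be named, and of each pathway list the 4 with the largest day 14 minus day 10 difference. Of each marker list the first 4 could be named, and Trp63 and Pi16 were named besides, after their values were seen. Promoter windows came from RefSeq. Counting was checked on simulated data. Alternatives were centred arrays, quantile normalization, the brightest probe set, a level filter, no equal values, no genes of the brightest 1%, narrower classes and 2-fold. Python 3.11.15, numpy 2.4.6, pandas 2.3.3 and matplotlib 3.10.9 were used.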

Additional observations from a re-analysis of the deposited data

How the results depend on the processing

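With 1 array of pooled tissue a day, all values compare single pools, and no depth or detection per probe set is known. The counts of collagen genes at least 1.5-fold higher or lower were the same under every alternative run for day 12 against day 10 and for day 14 against day 12. For day 14 against day 10, the count of 1 gene higher became 2 with centred arrays and 2 with quantile normalization, as Col9a3 joined Col17a1, and 0 with a 2-fold threshold, which 1.25% of named genes passed. The median of the collagen genes on day 14 against day 12 went from 0.02 to 0.082 without genes of identical values, by construction over fewer genes. The other medians over all collagen genes moved by less than the median disagreement between probe sets. Of members with unequal values, 22 of 24 kept their direction in every setting on day 12 against day 10. The counts were 31 of 34 on day 14 against day 12 and 33 of 37 on day 14 against day 10. The last left out Col4a2, Col5a3, Col6a3 and Col6a5. For the 42 members with 1 probe set, only centring and quantile normalization could alter a value. The other settings kept their direction by construction. Class medians moved with their membership. On day 14 against day 10 the type IV chains alone had a median of 0.13 where the basement membrane class had 0.00, and the class had −0.09 above the level filter, which left out its dimmer chains. No replicate could be left out and no paired analysis was possible because each day had 1 array.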
